A study of Homo sapiens with 2 samples.

Results

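The SLC1 family holds 7 membrane transporters, SLC1A1 to SLC1A7, and all 7 were measured here among 18392 genes on arrays of PC3 cells. The members are every probe set that the platform annotation assigns to one of these genes and to no other, which gave 18 of 37145 probe sets. The family was chosen by earlier results of the same 2 arrays, in which SLC1A7 had the largest negative difference of any gene above an expression floor, so every value below describes these arrays and supports nothing beyond them. No probe set shared between several genes named a member.

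PC3 is an established human cell line from a prostate adenocarcinoma. Total RNA came from cells treated with DMSO, the vehicle, on 1 array and from cells treated with 10 µM fluphenazine, an antipsychotic drug of the phenothiazine class, on the other. The series concerns fluphenazine in castration-resistant prostate cancer. How long the cells were treated is not stated in the labels. The labels name a labelling kit for whole transcripts, whereas the probe set identifiers belong to an array with probes near the 3′ ends of transcripts, and how this bears on a probe set's value was not tested. A single array for each treatment gives no spread between cultures, so no test was possible and no difference below has an error between replicates.

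SLC1 proteins move amino acids into cells by coupling them to the sodium gradient. SLC1A1 (EAAT3), SLC1A2 (EAAT2), SLC1A3 (EAAT1), SLC1A6 (EAAT4) and SLC1A7 (EAAT5) carry glutamate and aspartate; in the brain SLC1A2 and SLC1A3 of astrocytes clear glutamate from synapses, and SLC1A7 is best known from the retina. SLC1A4 (ASCT1) and SLC1A5 (ASCT2) exchange neutral amino acids instead, and SLC1A5 is a main route of glutamine into many tumour cells.

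Of the 18 probe sets, only 1 differed by 2-fold or more, a probe set of SLC1A7 that was 2.43-fold lower with fluphenazine. Next came 2 probe sets of SLC1A4, which were higher. Among the glutamate carriers 10 of 12 probe sets were lower with fluphenazine, 7 of them of SLC1A2 and SLC1A7, while the brightest probe sets of SLC1A1 and SLC1A3 were higher by 0.11 and 0.01. Among the neutral amino acid carriers 4 of 6 probe sets were higher, 3 of them of SLC1A4. Over all 37145 probe sets that name a single gene, 51.2% were lower, 0.0754% were at least 2-fold lower and 0.767% were at least 1.5-fold higher. Differences under 0.3 on the log2 scale were found in 14 of the 18 SLC1 probe sets and in 85.2% of all.

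**Figure D1:**
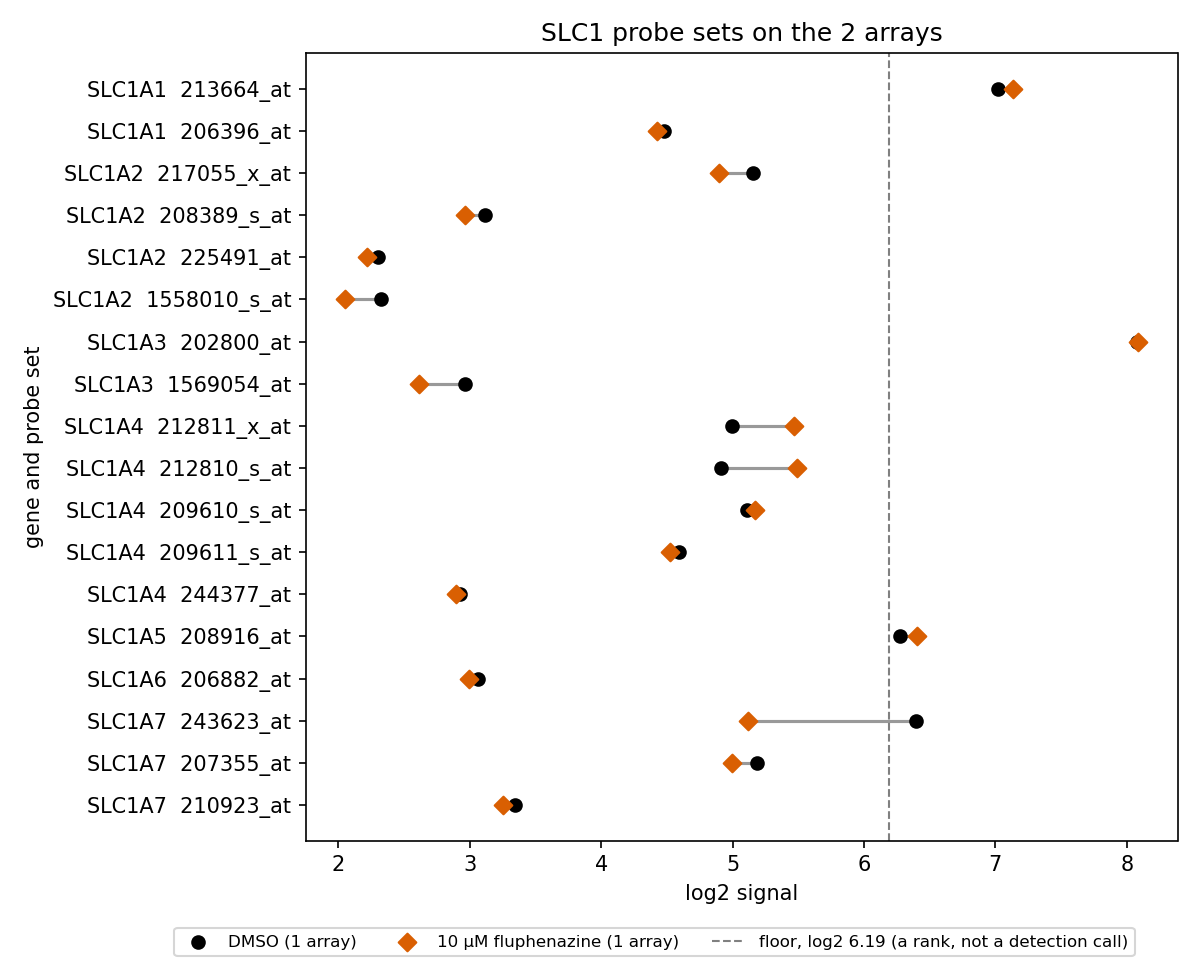
The log2 signal of each SLC1 probe set is plotted for the DMSO array (black circles) and the fluphenazine array (orange diamonds), with the floor of 6.19 as a dashed line. Only 243623_at of SLC1A7 crosses the floor between the arrays, from 6.39 to 5.12, and both upward shifts of SLC1A4 lie under it.

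Promoter stretches are shown for the members in which the motif TGATGNAA was found, whatever the size of their differences, and for SLC1A7. RefSeq windows on GRCh38.p14 ran from 250 bases before to 50 bases after an annotated transcript start, and 12 such windows matched 6 of the 7 genes; SLC1A2 had none. Both strands were searched for this motif, the core of the element through which the stress-response factor ATF4 acts on amino acid genes. It occurred in 3 of the 12 windows (25.0%), 1 each of SLC1A4, SLC1A3 and SLC1A5, and in 3.62% of all 35116 windows. The following stretches of 60 bases read 5′ to 3′ on the strand of the gene, with the match in capitals.
SLC1A4, chr2:64989349-64989408, plus strand: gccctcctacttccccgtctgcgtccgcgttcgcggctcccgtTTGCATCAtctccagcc
SLC1A3, chr5:36596342-36596401, plus strand: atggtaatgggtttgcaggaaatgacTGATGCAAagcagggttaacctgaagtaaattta
SLC1A5, chr19:46784878-46784937, minus strand: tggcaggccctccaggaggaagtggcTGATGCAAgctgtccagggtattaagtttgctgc

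In SLC1A4 the match lay on the opposite strand and began 7 bases before the start. It lay in 1 of 2 windows of that gene. In SLC1A3 and SLC1A5 it began 220 and 97 bases before the start, in 1 of 3 windows each. The window of SLC1A7 held no TGATGNAA, and it held CACGTG, the E-box read by basic helix-loop-helix factors, 60 bases before the start. That motif was found in 2 of the 12 windows (SLC1A7 and SLC1A5) and in 7.26% of all windows. The core of the interferon-stimulated response element (GAAA, any 2 bases and GAAA again) occurred in 0 of the 12 windows and in 3.57% of all. The stretch of SLC1A7 is shown as that of the member with the largest difference.
SLC1A7, chr1:53142666-53142725, minus strand: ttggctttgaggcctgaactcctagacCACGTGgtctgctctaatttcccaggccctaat

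These matches describe letters in a window. The arrays measured no binding, and no genome build is stated for the array files.

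SLC1A7, the retinal glutamate carrier with a large chloride conductance, was read by 3 probe sets that disagreed in size. The log2 signal of 243623_at was 6.39 with DMSO and 5.12 with fluphenazine, a difference of -1.28. For 207355_at it was 5.18 with DMSO and 5.00 with fluphenazine, a difference of -0.19. For 210923_at it was 3.34 and 3.25, a difference of -0.09. All 3 probe sets were thus lower on the fluphenazine array, the first by far the most.

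The probe set 243623_at was designed on an expressed sequence tag, a single-pass read of a cDNA, while the other 2 were designed on mRNA or other records. Where its probes lie relative to the exons of SLC1A7 is unknown here, and which probe set follows the SLC1A7 transcript was not tested. Among 4021 probe sets whose mean signal lay within 0.5 of its own, 3 were as far or farther down (0.0746%), itself included, and the robust SD of differences was 0.19. The other 2 were ordinary for their signal: 21.8% of probe sets around 207355_at and 34.7% of those around 210923_at were at least as low. The differences of the 3 spanned 1.19, a range reached by 9 of 2534 genes with 3 probe sets (0.355%). The family was chosen by the difference of 243623_at. Its rank and the range that rests on it follow from that choice and test nothing.

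SLC1A4, which exchanges serine, alanine, cysteine and threonine, was read by 5 probe sets that split into 2 that were higher and 3 close to 0. The log2 signal of 212810_s_at was 4.91 with DMSO and 5.49 with fluphenazine, a difference of 0.581, just under the 0.585 that marks 1.5-fold. For 212811_x_at it was 5.00 and 5.47, a difference of 0.47, or 1.39-fold. These 2 carry consecutive numbers, and whether they share probes is unknown here. Both were designed on expressed sequence tags, but so were 209610_s_at (0.07) and 244377_at (-0.03) of the same gene.

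The suffix _s_at marks a probe set whose probes match several transcripts, and _x_at one whose probes may also bind other genes. Around 212810_s_at, 1.11% of 4577 probe sets of like signal were as far up, and around 212811_x_at, 2.37% of 4566. The remaining SLC1A4 probe sets gave 5.11 and 5.17 (209610_s_at, a difference of 0.07), 4.59 and 4.53 (209611_s_at, -0.07), and 2.92 and 2.90 (244377_at, -0.03), each pair being DMSO then fluphenazine. The spread of 0.65 between the 5 was not unusual, since 115 of 614 genes with 5 probe sets (18.7%) reached it. All 5 lay under the floor on both arrays.

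SLC1A5, the glutamine exchanger, had a single probe set. It read 6.27 with DMSO against 6.40 with fluphenazine, a log2 difference of 0.13, or 1.09-fold. Of the 3854 probe sets with a mean within 0.5 of it, 19.9% were at least as much higher, so the value lay inside the common spread.

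**Figure D2:**
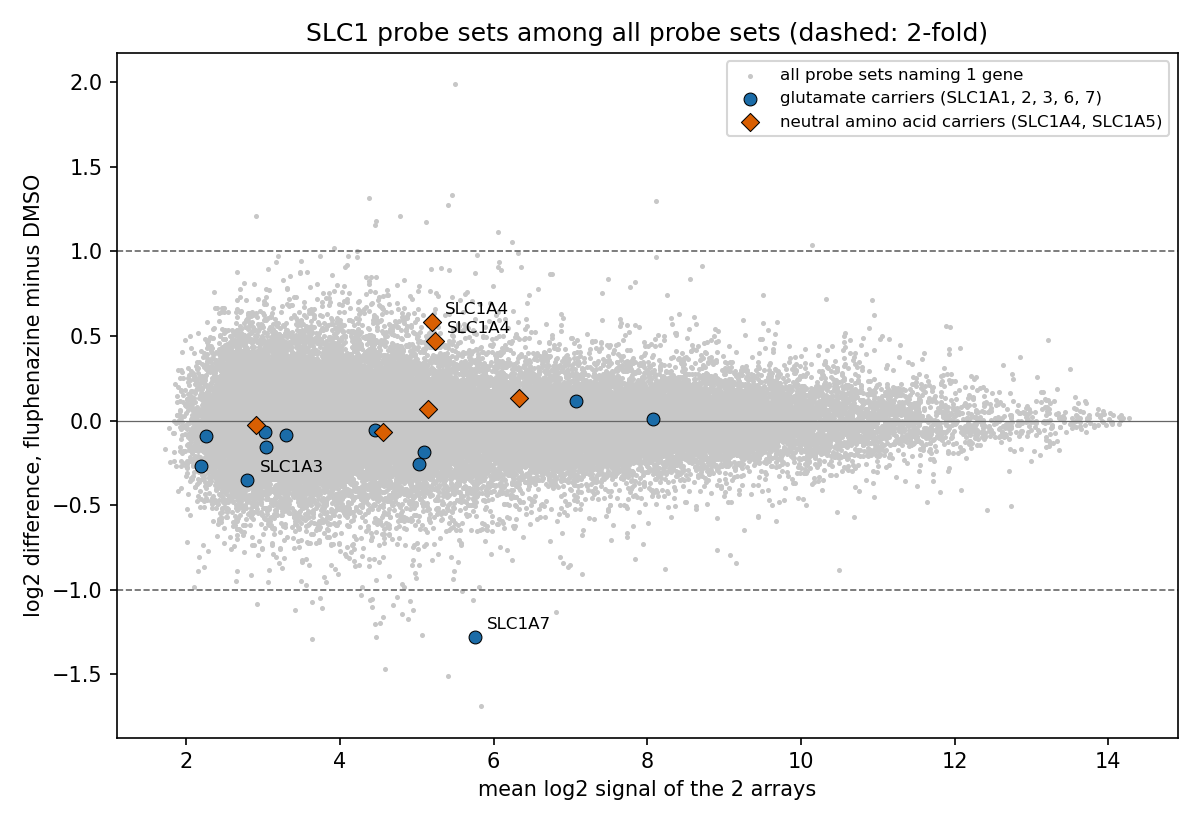
Each point is a probe set that names a single gene, placed by its mean log2 signal and by the log2 difference between fluphenazine and DMSO; SLC1 probe sets are coloured by substrate and dashed lines mark 2-fold. SLC1A7 at -1.28 lies below the cloud, the 2 SLC1A4 probe sets at 0.58 and 0.47 lie at its upper edge, and the remaining SLC1 probe sets lie within it.

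The other glutamate carriers showed no difference of that size. SLC1A1, the carrier of neurons and of kidney and gut epithelium, which also takes up cysteine, had log2 signals of 7.02 with DMSO and 7.13 with fluphenazine by 213664_at (0.11). Its second probe set, 206396_at, gave 4.48 and 4.42 (-0.05), so the pair disagreed in sign by an amount that 49.3% of 4689 genes with 2 probe sets reached. SLC1A3 was at 8.08 on both arrays by 202800_at, a difference of 0.01.

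A dim second probe set of SLC1A3, 1569054_at, gave 2.96 with DMSO and 2.61 with fluphenazine (-0.35), and 6.97% of probe sets of like signal were as far down. SLC1A2 was the only member with several probe sets besides SLC1A7 whose probe sets were all lower. They gave differences of -0.27 (1558010_s_at), -0.26 (217055_x_at), -0.15 (208389_s_at) and -0.09 (225491_at). The brightest of them, 217055_x_at, was at 5.15 with DMSO and 4.90 with fluphenazine, and its probes may also bind other genes. With DMSO, 208389_s_at was at 3.12, 1558010_s_at at 2.32 and 225491_at at 2.31. The share of all genes whose probe sets were all lower was not counted, so this agreement sets neither gene apart. All 4 lay under the floor on both arrays, and between 12.4% and 33.3% of probe sets of like signal were at least as low. SLC1A6, known from Purkinje cells of the cerebellum, was at 3.06 and 2.99, a difference of -0.07 by its single probe set.

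**Figure D3:**
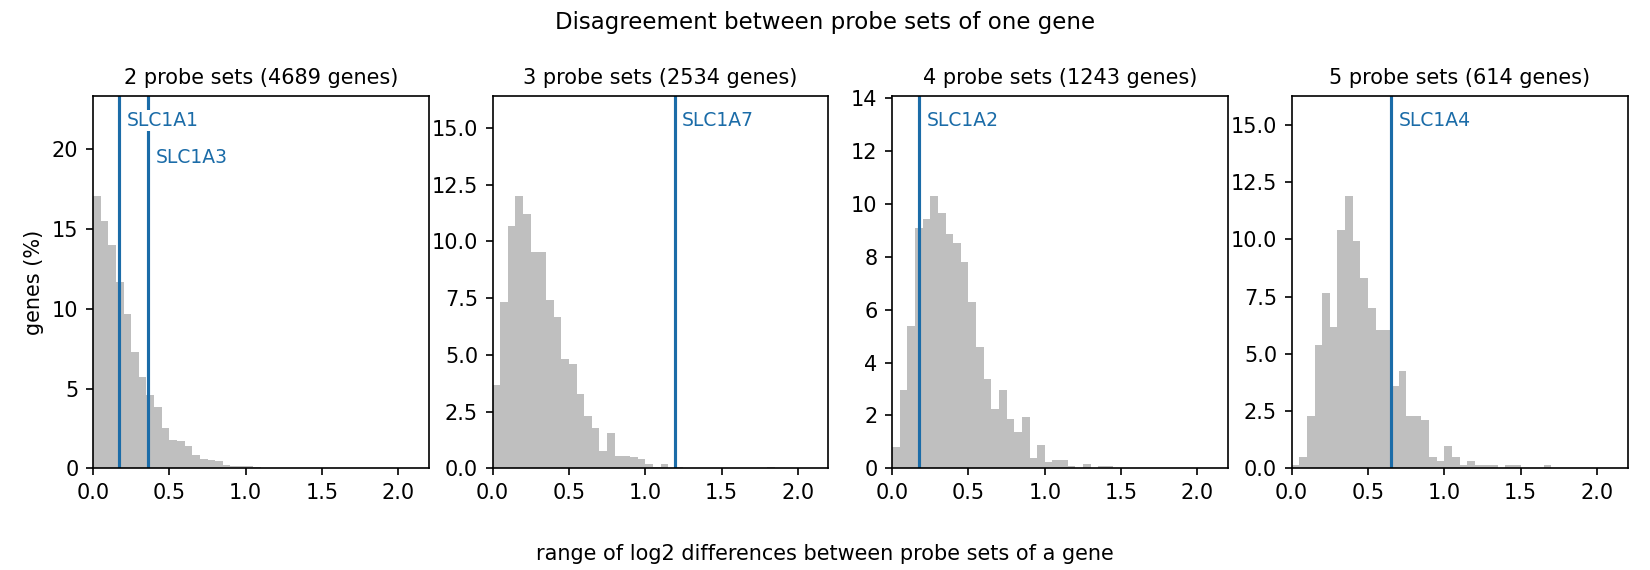
Grey bars show, for genes with 2, 3, 4 or 5 probe sets, the share of genes (%) by the range of log2 differences between their probe sets; blue lines mark SLC1 genes. The range of 1.19 for SLC1A7 lies at the far end among 2534 genes, while SLC1A4 (0.65), SLC1A3 (0.36), SLC1A1 (0.17) and SLC1A2 (0.18) lie inside the bulk.

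By the probe set with the highest mean signal, 4 of the 7 genes reached the floor of 6.19, the median over genes of the higher of the 2 values. These were SLC1A1, SLC1A3, SLC1A5 and SLC1A7, the last through its DMSO value alone. The floor is a rank and not a detection call. SLC1A7 was 1 of 3 genes above the floor that were at least 2-fold lower, or 0.0326% of 9196. The family was chosen by this difference of SLC1A7, so its place among them follows from the choice. SLC1A2, SLC1A4 and SLC1A6 were under the floor on both arrays.

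Other amino acid transporters, listed as sharing substrates with the family, had mostly small positive differences. Of 28 measured, 17 were above the floor, and 11 of these were higher with fluphenazine and 6 lower, where 48.2% of all genes above the floor were higher. Their median difference was 0.08, against -0.01 over all genes above the floor. SLC7A11, which trades intracellular glutamate for cystine, was highest: its log2 signal went from 9.23 with DMSO to 9.71 with fluphenazine (0.48), and its 3 probe sets lay between 0.37 and 0.59. SLC38A2, a sodium-coupled glutamine carrier, was at 12.60 and 12.88 (0.27, with 3 probe sets between 0.27 and 0.43).

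SLC7A5, which exports glutamine in exchange for leucine, and its partner chain SLC3A2 differed by 0.28 and 0.22. SLC7A1, counted in this list although it carries arginine and lysine, was at 0.31, but its 5 probe sets ran from -0.25 to 0.49. On the other side lay SLC25A12, the mitochondrial aspartate-glutamate carrier, at -0.29, SLC6A14, a broad neutral and cationic amino acid carrier, at -0.27, and the lysosomal exporter SLC36A1 at -0.20. The 2 probe sets of SLC25A12 disagreed in sign (-0.29 and 0.07). No member of this list reached 1.5-fold, as 0.283% of all genes above the floor did upwards.

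**Figure D4:**
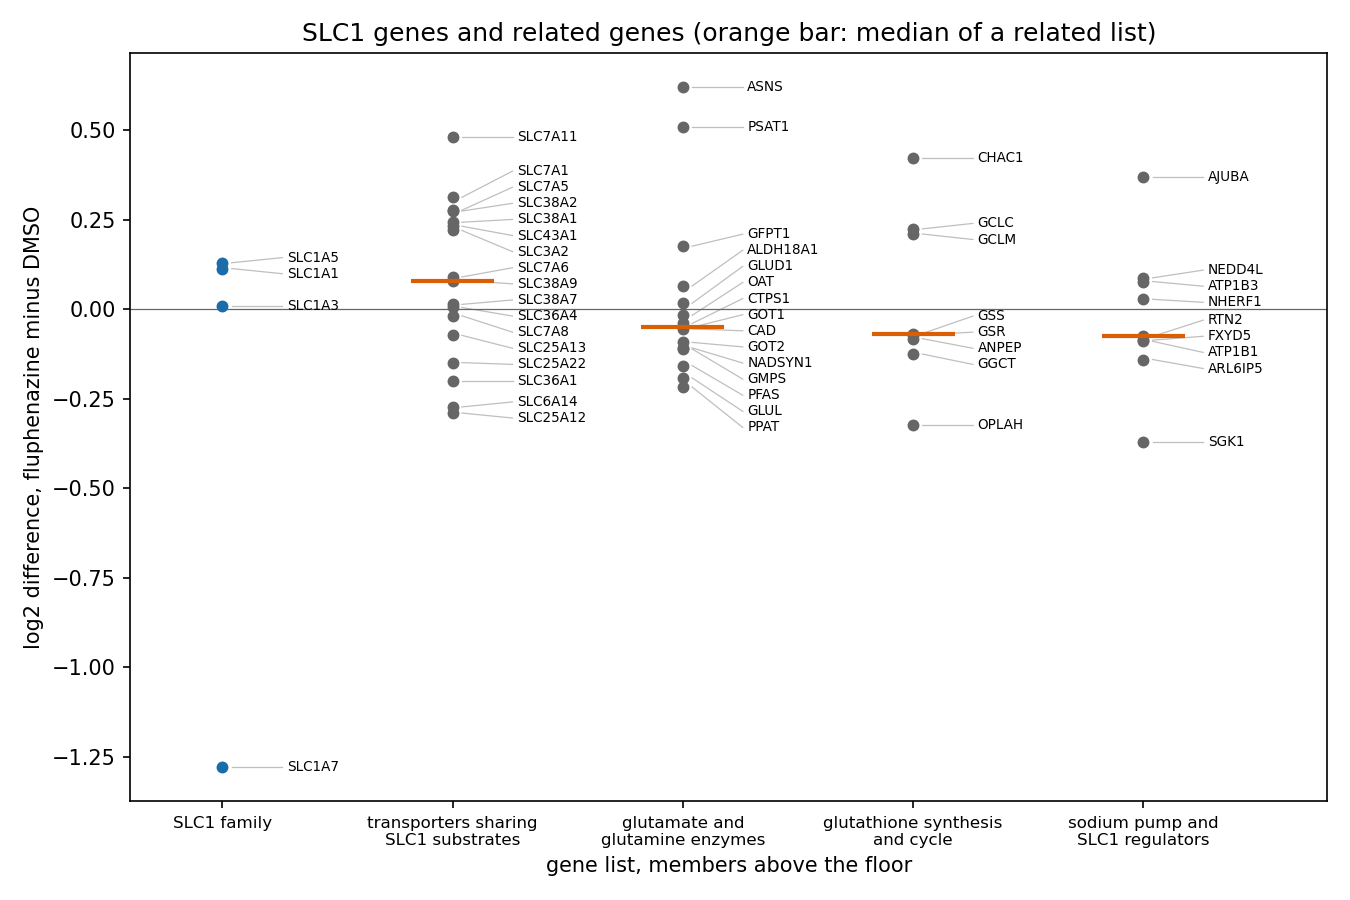
Log2 differences between fluphenazine and DMSO are plotted for SLC1 genes and for related genes above the floor, 1 point per gene by its brightest probe set, with orange bars at the median of each related list. SLC1A7 at -1.28 lies apart from all others shown, and the highest points are ASNS at 0.62, PSAT1 at 0.51 and SLC7A11 at 0.48.

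Enzymes that make or use glutamate and glutamine were lower in 10 of the 15 that reached the floor. Their median was -0.05. Over all genes above the floor 51.8% were lower. ASNS, which builds asparagine from aspartate and glutamine, was at 10.63 with DMSO and 11.26 with fluphenazine (0.62), though its other probe set gave -0.31. PSAT1, the glutamate-dependent aminotransferase of serine synthesis, was at 9.41 and 9.92 (0.51), with 0.15 from its other probe set. GFPT1, the first enzyme of the hexosamine pathway, was at 0.18. GLUL, glutamine synthetase, was at -0.19, while its 4 probe sets ran from -0.19 to 0.20. PPAT and PFAS, glutamine-using enzymes of purine synthesis, were at -0.22 and -0.16.

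Genes of glutathione synthesis and turnover, for which glutamate is a building block, were split, with 3 of 8 higher, beside 48.2% of all genes above the floor, and a median of -0.07. CHAC1, which degrades glutathione, was at 0.42, and GCLC and GCLM, the 2 chains of glutamate-cysteine ligase, were at 0.23 and 0.21. The 3 probe sets of GCLC ran from -0.01 to 0.25. OPLAH, which returns 5-oxoproline to glutamate, was at -0.32, GGCT at -0.12 and ANPEP at -0.08. For ANPEP the other probe set gave 0.15.

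Sodium pump subunits and proteins known to act on SLC1 carriers were higher in 4 of 9, also close to the 48.2% of all genes, with a median of -0.08. ATP1B1 and ATP1B3, beta subunits of the pump that maintains the sodium gradient, were at -0.09 and 0.08. For ATP1B1 the other probe set gave 0.001. SGK1, a kinase that raises the surface level of several SLC1 carriers, was at 10.11 with DMSO and 9.74 with fluphenazine (-0.37). AJUBA, a scaffold protein that binds SLC1A2, was at 10.38 and 10.75 (0.37, with 4 probe sets between 0.17 and 0.47). ARL6IP5, an inhibitor of SLC1A1, was at -0.14, and the ubiquitin ligase NEDD4L was at 0.09 with 6 probe sets between -0.27 and 0.17.

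The signalling side of glutamate was dim on both arrays. All 23 measured vesicular glutamate transporters and glutamate receptors lay under the floor, the highest value of any being 6.13. By the definition of the floor, 9196 of all 18392 genes lay under it. Of 9 markers of glia, neurons and retina, cell types in which SLC1 carriers are best known, 8 were under the floor, among them GFAP (4.07 with DMSO and 3.99 with fluphenazine) and the retinal genes RCVRN and PDE6A. The exception was MBP at 8.63 and 8.39 (-0.23, with 9 probe sets between -0.37 and 0.04).

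The cells are labelled as prostate cancer, an epithelial tumour. The epithelial markers KRT18, KRT19, EPCAM and CDH1 had log2 signals from 12.08 to 12.72 over both arrays, and KRT8 was at 9.70 with DMSO and 9.28 with fluphenazine. Of 6 listed genes that PC3 is known to lack or hold at a low level, 3 are analysed here. CTNNA1, which PC3 is known to have lost, was at 4.19 and 4.09, and the differences of its 5 probe sets ran from -0.66 to 0.26. KLK3 and TMPRSS2, prostate genes that PC3 is known to hold at a low level, were above the floor, with KLK3 at 6.93 and 6.90. A value above the floor therefore does not by itself show a high level, and the floor is no detection call. The 3 probe sets of KLK3 ran from -0.03 to 0.57 and the 4 of TMPRSS2 from 0.04 to 0.44. All 24 probe sets of the poly-A spike-ins, bacterial transcripts added before labelling, had a lower signal with fluphenazine (median difference -0.22). The control probe sets for ACTB gave -0.13 for the 5′ part of the transcript, -0.17 for the middle and 0.00 for the 3′ part, and those for GAPDH gave 0.06, -0.02 and 0.03. The part of these array differences in the SLC1 values was not tested.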

How the data were processed

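RNA of 2 PC3 cultures was measured on 1 array each. The authors deposited 1 log2 signal per probe set and array; the submitters' processing notes list RMA, Transcriptome Analysis Console 3.1 and Affymetrix Expression Console 1.4 without their roles. The log2 scale was judged from the values, 1.60 to 14.28. Sorted, the columns differed by at most 0.13, so differences are relative to the other genes. Probe sets were named by a 2016 platform annotation, with symbols updated through gene identifiers. The probe set with the highest mean stood for a gene. The floor was the median over 18392 genes of the higher value. Members and lists were chosen with earlier results of these data known. Named genes were all members, the 3 extreme genes in each direction of a list, and 9 fixed genes, 2 of which are not analysed here. The lists held 126 entries, of which 20 are not analysed here. Likeness of pattern was not measured. Python 3.11.15, numpy 2.4.6 and pandas 2.3.3 were used, and the procedure was tested on simulated data. In these all probe sets of a gene shared the same planted change, so probe sets that disagree were not covered. The number of arrays limits the precision.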

Additional observations from a re-analysis of the deposited data

How the results depend on the processing

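With 8 alternatives, 212 of 233 recomputed values stayed within the tolerance, 0.13 on the log2 scale or 1.5 times for counts. The difference or median changed sign for SLC1A3 and 2 lists, given below, and for no difference of 1.5-fold or more. The 3 scalings moved no SLC1 difference by more than 0.03 and turned no sign. What mattered was how probe sets were combined. When probe sets were averaged, SLC1A7 was at -0.52, SLC1A4 at 0.20 and SLC1A3 at -0.17. With the median of their differences, the values were -0.19, 0.068 and -0.17, so SLC1A3 turned from 0.01 to below 0 under both. Under both, 0 SLC1 genes above the floor were 1.5-fold or 2-fold lower, since SLC1A7 was then under 1.5-fold. Its level also fell under the recomputed floor (4.97 against 5.29 for the mean, 5.18 against 5.21 for the median), which left 3 members above it. Without a floor, 7 SLC1 genes counted, 3 of them lower. The glia, neuron and retina markers then had a median of -0.059 over 9 genes, against -0.23 for MBP, the only 1 above the floor. The median of genes that PC3 lacks or holds at a low level turned from 0.04 over 2 genes to -0.03 over 3. At the 75th percentile the floor was 8.43 and left 0 SLC1 genes. The medians were then 0.072 (from -0.07) for glutathione genes and 0.26 for the transporters listed as sharing substrates. At 1.5-fold, 1 glutamate or glutamine enzyme, ASNS, counted. Depth here is signal over background, which the deposited values do not give, so dim probe sets such as those of SLC1A2 and SLC1A6 cannot be called detected. No paired analysis was possible because each treatment had 1 array.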

Other observations

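Neighbouring genes were examined after the SLC1 values were seen. On either side of SLC1A7 in RefSeq's gene order, the nearest measured protein-coding genes were PODN and CPT2. PODN, a small proteoglycan, was at 3.84 with DMSO and 3.64 with fluphenazine (-0.20, with -0.13 from its other probe set). CPT2, the carnitine palmitoyltransferase of the inner mitochondrial membrane, was at 8.54 and 8.21 (-0.33, with -0.07 from its other probe set). The neighbours of SLC1A4, SERTAD2 and CEP68, were at 0.09 and 0.06, and the 5 probe sets of CEP68 ran from -0.22 to 0.15. None of these 4 neighbours reached 1.5-fold, and few genes did. Of all 9196 genes above the floor, 26 were at least 1.5-fold higher and 27 at least 1.5-fold lower.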
